A study of Rattus norvegicus with 2 samples.

Results

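The cells described here were those cochlear duct cells of the rat in which Otor was abundant and in which S100b and Col9a2 were abundant as well. A cell was a member if Otor took 1% or more of its UMIs (unique molecular identifiers, 1 per captured transcript), Crym 0.3% or more, and S100b and Col9a2 together 0.2% or more, with at most 2 UMIs of Car3, at most 1 of Cldn5 and none of the division genes Top2a and Ube2c. Of 28569 barcodes in all, 25360 passed the limits on quality and 1731 of those were members, 981 of 12779 at P1 and 750 of 12581 at P7. The cells came from the cochlear ducts of Sprague-Dawley rats, pooled from several animals into 1 droplet library at postnatal day 1 (P1, the day of birth) and 1 at postnatal day 7 (P7). Because each age had 1 library, age and library cannot be told apart, no test was run, and every interval is exact at the 95% level and covers counting error only.

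Fibrocytes are the connective tissue cells of the cochlear lateral wall and spiral limbus. They make the extracellular matrix that surrounds the duct, are coupled by gap junctions, and take part in returning potassium to the fluid of the duct. Otor encodes otoraplin, a small secreted protein of the inner ear, and Crym encodes mu-crystallin, a cytosolic protein that binds thyroid hormone. S100b is a calcium-binding protein, and Col9a2 is a chain of collagen IX, which coats the collagen II fibrils of cartilage-type matrix. Col2a1 encodes the chain of collagen II, and Isyna1 encodes the enzyme that makes inositol phosphate from glucose phosphate.

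Both libraries are labelled as cells of the greater epithelial ridge, an epithelium of the duct, and the Methods state that the stria vascularis, spiral ligament and spiral ganglion were separated from the duct. In the members the 7 epithelial markers together had 9.49 CPM at P1 and 18.4 CPM at P7 (CPM, the UMIs of a gene in 1000000 UMIs of the cells summed), below the 62.4 and 79.1 CPM of all other kept cells. None of the 7 reached 10 CPM, and Epcam, an adhesion protein of epithelia, had 4.82 and 7.64 CPM. Of 9 markers of the greater epithelial ridge and tectorial membrane, Fbxo2 and Cpxm2 reached 10 CPM at P1 and Tectb did so at P7 as well, whereas Otoa stayed at 0.623 and 0.975 CPM. Summed, these 9 markers had 140 CPM in the members at P1 and 487 CPM at P7, against 69.2 and 89.2 CPM in the Otor-high cells low in S100b and Col9a2 and 249 and 381 CPM in all other kept cells. Fbxo2 made up most of this in the members (104 and 393 CPM), and at P7 Fbxo2 and Cpxm2 were past 2-fold above all other kept cells while Tecta, Tectb and Sox2 were past 2-fold below them. Pou3f4 and Tbx18, transcription factors of the periotic mesenchyme, had 537 and 402 CPM at P1 and 529 and 398 CPM at P7. The general epithelial markers were thus near 0, whereas some markers of the labelled ridge were present beside the mesenchymal genes. The name was less apt for Isyna1, since this gene, a marker of the members at P1, was lower in them than in the Otor-high cells low in S100b and Col9a2 at P7.

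Markers of other cell types moved with age as well. Summed glial markers had 386 CPM in the members at P1 and 819 CPM at P7, with 1615 and 6619 CPM in all other kept cells, and Pmp22 made up most of both values in the members (313 and 460 CPM). The 7 macrophage markers had 111 CPM at P1 and 28.0 CPM at P7, but 3 P1 cells held 673 of the 715 UMIs, and the remaining 42 UMIs compare with 172 at P7. Neuron markers had 67.9 CPM at P1 and 9.27 CPM at P7 in the members and 674 and 47.4 CPM in all other kept cells, and Stmn2, Tubb3 and Nefm, the 3 at the floor, were past 2-fold lower at P7. Osteoblast markers had 14.8 and 94.6 CPM and those of interstitial fibroblasts 505 and 1096 CPM. Summed erythroid markers had 223 and 591 CPM. Endothelial markers had 164 and 570 CPM, of which Emcn had 142 and 496 CPM, while Cldn5 was held down by the rule. The 9 chondrocyte markers together had 498 and 935 CPM in the members, against 97.1 and 76.7 CPM in the low cells and 123 and 272 CPM in the others, and Cnmd made up most of the members' values (476 and 900 CPM). Of the others in that list, Matn1 was at 0 in the members of both libraries and Acan, the main proteoglycan of cartilage, had 0.311 and 3.25 CPM. The part of other cell types or of free RNA in the results below was not tested.

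Summed over the members there were 6425532 UMIs at P1 and 6151433 at P7, a median of 5927 and 7785.5 UMIs and 1997 and 2566.5 genes per cell. At a common depth of 2000 UMIs per cell the median was 935 genes at P1 and 1006 at P7, with 5 and 25 shallower members left out. Ribosomal protein genes took 21.4% and 17.1% of the members' UMIs and mitochondrial genes 7.28% and 8.02%. The libraries shared 60 barcode sequences, and none of these was a member in both. Macrophages, picked by their UMIs of Lyz2 and C1qa, should lack fibrocyte genes, and their Otor level of 648 CPM at P1 and 932 CPM at P7 is given as the level of free RNA for that gene.

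The promoters of Otor, which marks the cells, and of Otos and Gcg, which were higher in the members than in the Otor-high cells low in S100b and Col9a2 but were carried by few members, are shown for the 250 bases before the RefSeq start of each gene in the assembly GRCr8, with TATAAA on either strand in capitals. Otor lies at chr3:150868636-150868885 on the plus strand, Otos at chr9:100665899-100666148 on the minus strand and Gcg at chr3:67531534-67531783 on the minus strand, each read 5′ to 3′ on the strand of the gene.
Otor: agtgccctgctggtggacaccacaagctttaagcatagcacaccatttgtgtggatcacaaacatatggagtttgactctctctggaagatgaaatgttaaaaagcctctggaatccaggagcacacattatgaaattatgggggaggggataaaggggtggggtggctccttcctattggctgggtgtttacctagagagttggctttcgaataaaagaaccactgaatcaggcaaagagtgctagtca
Otos: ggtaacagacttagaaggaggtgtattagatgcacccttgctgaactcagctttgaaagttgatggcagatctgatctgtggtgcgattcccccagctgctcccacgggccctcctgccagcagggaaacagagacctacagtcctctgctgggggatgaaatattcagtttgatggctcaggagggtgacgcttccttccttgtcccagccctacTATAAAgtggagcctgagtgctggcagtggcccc
Gcg: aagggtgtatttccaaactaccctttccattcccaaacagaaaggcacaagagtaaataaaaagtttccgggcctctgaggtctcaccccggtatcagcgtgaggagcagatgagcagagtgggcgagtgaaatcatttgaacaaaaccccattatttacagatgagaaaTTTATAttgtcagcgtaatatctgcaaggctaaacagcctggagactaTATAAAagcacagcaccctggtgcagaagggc
In Otos the letters TATAAA stand at -34 to -29 and in Gcg at -32 to -27, counted from the base before the start as -1, and Gcg holds them on the other strand at -80 to -75. Otor has no match of these letters. The core ACAAAG, of the kind bound by SOX proteins, was searched on both strands as well. Its relative ACAATG was searched in the same way, and neither core is in the windows printed. Of 17 genes looked up, 12 were found in the RefSeq table, and 3 of these held TATAAA as printed, 4 on either strand and 2 held ACAAAG or ACAATG. Over all 33469 promoters of that length, 8.06% held TATAAA as printed, 12.9% on either strand and 25.3% ACAAAG or ACAATG on either strand, so a match is a description of letters only.

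Members took a slightly smaller share of the cells at P7 than at P1. They were 7.68% of the kept cells at P1 (7.22 to 8.15) and 5.96% at P7 (5.55 to 6.39), which is -0.36 as a log2 ratio (-0.50 to -0.23). Among the Otor-high cells, those that met the limits on Otor and Crym and had no division gene, they made up 53.4% at P1 and 51.3% at P7, a log2 ratio of -0.06 (-0.20 to 0.08) that does not differ from 0 beyond counting error. The other Otor-high cells shifted more. Those low in S100b and Col9a2 went from 623 to 129 cells (33.9% to 8.83%), those with more than 2 UMIs of Car3 from 19 to 321 (1.03% to 22%), and those with more than 1 UMI of Cldn5 from 213 to 261 (11.6% to 17.9%). With the limit on S100b and Col9a2 raised to 0.4%, the direction of the share turned, with 3.79% at P1 and 4.20% at P7.

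The genes of the rule chose the members, so their values are a description. Otor ran from 1.00% to 4.51% of a member's UMIs at P1, with a median of 1.94%, and from 1.00% to 5% at P7, with a median of 1.91%. The median share of Crym was 0.689% and 0.641%, and that of S100b and Col9a2 together 0.398% and 0.526%. Nearly every member carried both of the summed genes, since S100b was at 0 in 8 P1 and 4 P7 members and Col9a2 in 1 and 2. Just inside the limit, between 0.2% and 0.25%, lay 146 P1 and 50 P7 members. Just outside, between 0.15% and 0.2%, lay 192 P1 and 42 P7 cells. Across the limit Cnmd had 113 CPM outside and 280 CPM inside at P1 (62.6 and 125 CPM at P7), Matn4 778 and 933 CPM (378 and 697 at P7), and Otos 4.21 and 4.20 CPM (11.4 and 8.91 at P7).

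**Figure D1:**
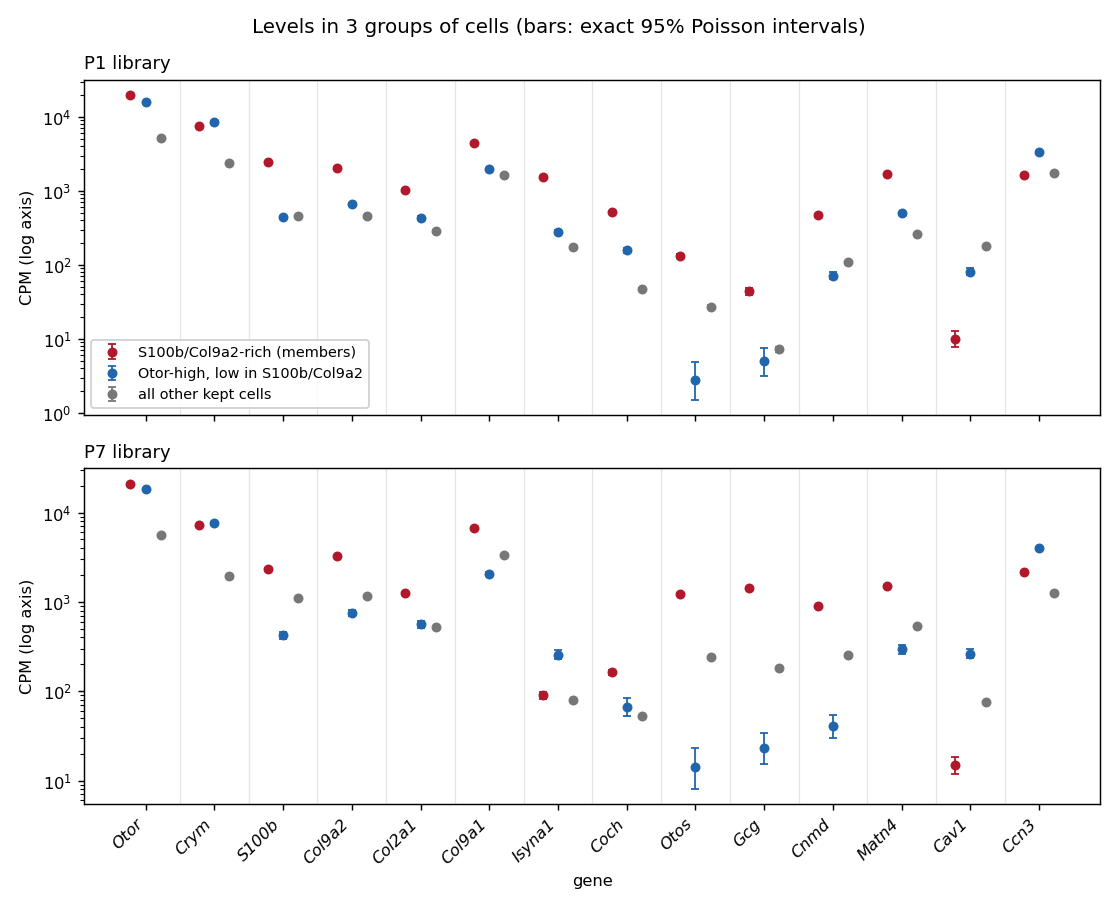
Levels of 14 genes in CPM (log axis) in the members (red), in the Otor-high cells low in S100b and Col9a2 (blue) and in all other kept cells (grey), P1 above and P7 below, with exact 95% Poisson intervals. Otos was at 132 CPM in the members and 2.82 CPM in the low cells at P1, and Isyna1 was above the low cells at P1 (1551 against 277 CPM) and below them at P7 (90.1 against 257 CPM).

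The closest cells were the Otor-high cells low in S100b and Col9a2, which differ from the members by the rule only in that sum. Genes were counted as past 2-fold where the log2 ratio with 5 CPM added to both levels reached 1 and the higher group had at least 10 CPM and 50 UMIs. Of 5014 genes that met this floor in both libraries, 37 (0.738%) were higher in the members in both and 17 (0.339%) were lower in both, S100b and Col9a2 among the former by the rule. Within 1 library, 0.626% of the genes tested were lower at P1 and 0.979% at P7. Cartilage-type matrix genes, secreted proteins of fibrocytes and Gcg were among those higher. Caveolar genes, fibronectin and periostin were among those lower.

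Otos encodes otospiralin, a small protein secreted by cochlear fibrocytes. Its level was 132 CPM (124 to 142) in the members and 2.82 CPM in the low cells at P1, and 1229 (1202 to 1257) and 14.3 CPM at P7. This made it 47.0-fold higher at P1 and 86.2-fold higher at P7, log2 ratios of 5.55 (4.77 to 6.47) and 6.43 (5.73 to 7.24). Cnmd, chondromodulin, a membrane protein of cartilage that restrains blood vessel growth, had 476 CPM in the members against 71.8 at P1 and 900 against 41.0 at P7. Gcg, the precursor of glucagon and the glucagon-like peptides, had 43.9 against 4.99 CPM at P1 and 1419 against 23.2 CPM at P7. Among the other 15 most raised genes were the matrix genes Matn4, a matrilin (1708 against 503 CPM at P1, 1500 against 293 at P7), and Fmod, fibromodulin (76.6 against 12.8, 27.0 against 3.57). Apod, a lipid carrier, had 2757 against 831 CPM at P1 and 2827 against 538 at P7. The list also held Chi3l1, Fbxo2, Cmtm5, Cpz, Csap1, Gatm and Mia, Mia being the relative of Otor first known from cartilage and melanoma.

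All chains of collagens II, IX and XI stood higher in the members at P1. The 6 genes were Col2a1, Col9a1, Col9a2, Col9a3, Col11a1 and Col11a2, of which Col9a2 is in the rule, and 6 were past 2-fold at P1 (1.11% of 7033 genes were higher) and 5 at P7 (3.01% of 5515). Their median log2 ratio was 1.24 at P1 and 1.56 at P7, beside -0.01 and 0.11 over all genes tested. Without Col9a2, 5 of 5 were past 2-fold at P1 and 4 of 5 at P7, with medians of 1.24 and 1.40. Col9a1 had 4386 CPM in the members and 2009 in the low cells at P1, and 6737 and 2049 CPM at P7. Col2a1 had 1039 and 437 CPM at P1 and 1265 and 560 CPM at P7. Col11a1 was the member of the list under 2-fold at P7, with 610 against 339 CPM. Of the interstitial collagens 0 of 9 were past 2-fold in either direction at P1, with a median of -0.0015, and 2 of 7 (Col12a1 and Col14a1) were higher at P7, with a median of 0.64.

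Among 18 genes of cartilage matrix and its regulators, 6 met the floor at P1 and 7 at P7. Matn4, Cnmd and Sox5 were higher at P1 and Matn4, Cnmd and Ucma at P7, where 1.11% and 3.01% of all genes were. None was lower, but over all genes only 0.626% and 0.979% were. Sox9, the master transcription factor of cartilage, had 103 CPM in the members and 114 in the low cells at P1, a log2 ratio of -0.14 (-0.31 to 0.03), and 320 and 166 CPM at P7, a log2 ratio of 0.95 (0.73 to 1.17). Pou3f4 and Tbx18 differed little between these groups, with log2 ratios of -0.25 and -0.20 at P1 and 0.25 and 0.08 at P7.

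Cav1, the main protein of caveolae, was the gene lowest in the members. It had 10.1 CPM in them and 81.5 in the low cells at P1, and 14.8 and 263 CPM at P7, 8.06-fold and 17.8-fold lower. Cavin2, another protein of caveolae, went the same way (5.29 against 33.2 CPM, then 6.83 against 64.2). Aldh1a2, which makes retinoic acid, had 6.07 against 51.4 CPM at P1 and 7.97 against 66.0 CPM at P7. Fn1, fibronectin, had 79.5 against 228 CPM and 132 against 737 CPM, and Postn, periostin, 99.8 against 386 CPM and 194 against 444 CPM. The nuclear receptor Nr2f1 had 33.0 against 92.4 and 51.2 against 245 CPM. Ccn3, a matricellular protein, was 2.09-fold lower at P1 (1628 against 3408 CPM) and 1.85-fold lower at P7 (2168 against 4010 CPM). With Otor at 2% or more, 5 genes in place of 17 were lower in both libraries. Cav1 lay at 16.9 and 21.0 CPM in macrophages, so the members' level of it was not above that of free RNA. Among the low cells Cav1 was highest by far in those with under 0.1% of S100b and Col9a2, at 161 CPM at P1 and 597 CPM at P7.

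**Figure D2:**
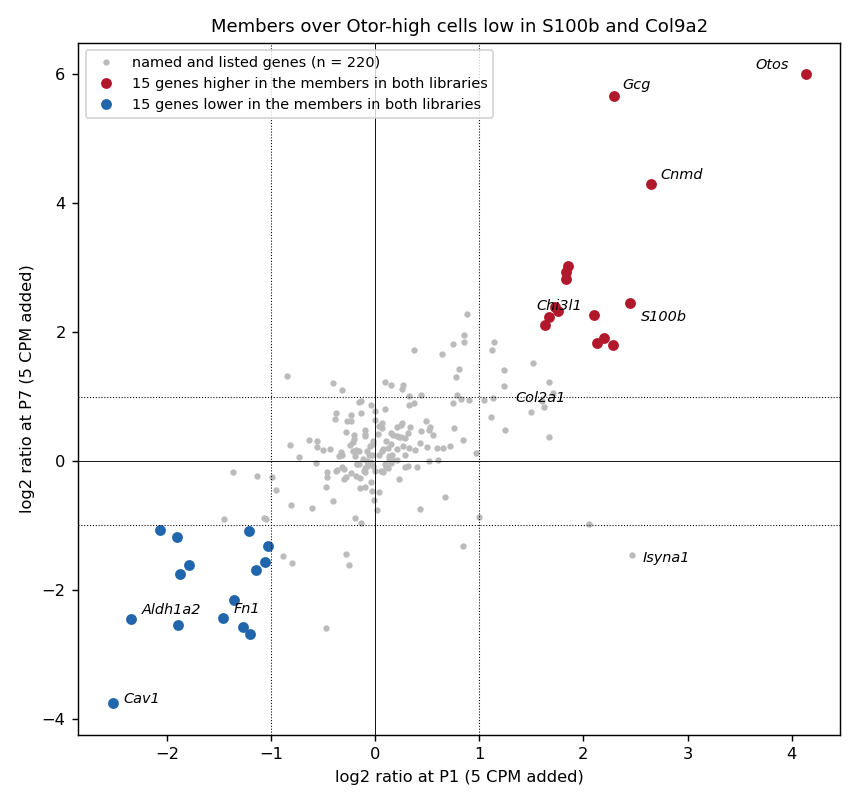
Log2 ratio of the members to the Otor-high cells low in S100b and Col9a2 (5 CPM added), at P1 on the horizontal and at P7 on the vertical axis, for 220 named and listed genes (grey) with the 15 most raised (red) and 15 most lowered (blue) in both libraries; dotted lines mark 2-fold. Otos, Gcg and Cnmd lay farthest to the upper right, Cav1 to the lower left, and Isyna1 at 2.47 and -1.46.

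Several of these genes differed between more than 2 bands of the sum of S100b and Col9a2, not only at the limit of 0.2%. From cells with under 0.1% to members with 0.8% or more, Cnmd had 25.3 to 1265 CPM at P1 and 7.16 to 2237 CPM at P7. Matn4 ran from 245 to 3249 CPM and from 83.6 to 2390 CPM over the same span. Col2a1, Col9a1 and Coch had their highest level in the topmost band in both libraries. Otos was within 1.65 and 19.9 CPM in all bands under 0.25% and reached 819 CPM at P1 and 5256 CPM at P7 in the topmost. Cav1 ran the other way, from 161 to 4.44 CPM at P1 and from 597 to 4.88 CPM at P7. Most of its fall lay between the lowest band and the next, which had 23.1 CPM at P1 and 79.8 CPM at P7. Ccn3 ran from 4622 to 892 and from 5791 to 1378 CPM. The topmost band held 79 P1 and 125 P7 members.

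**Figure D3:**
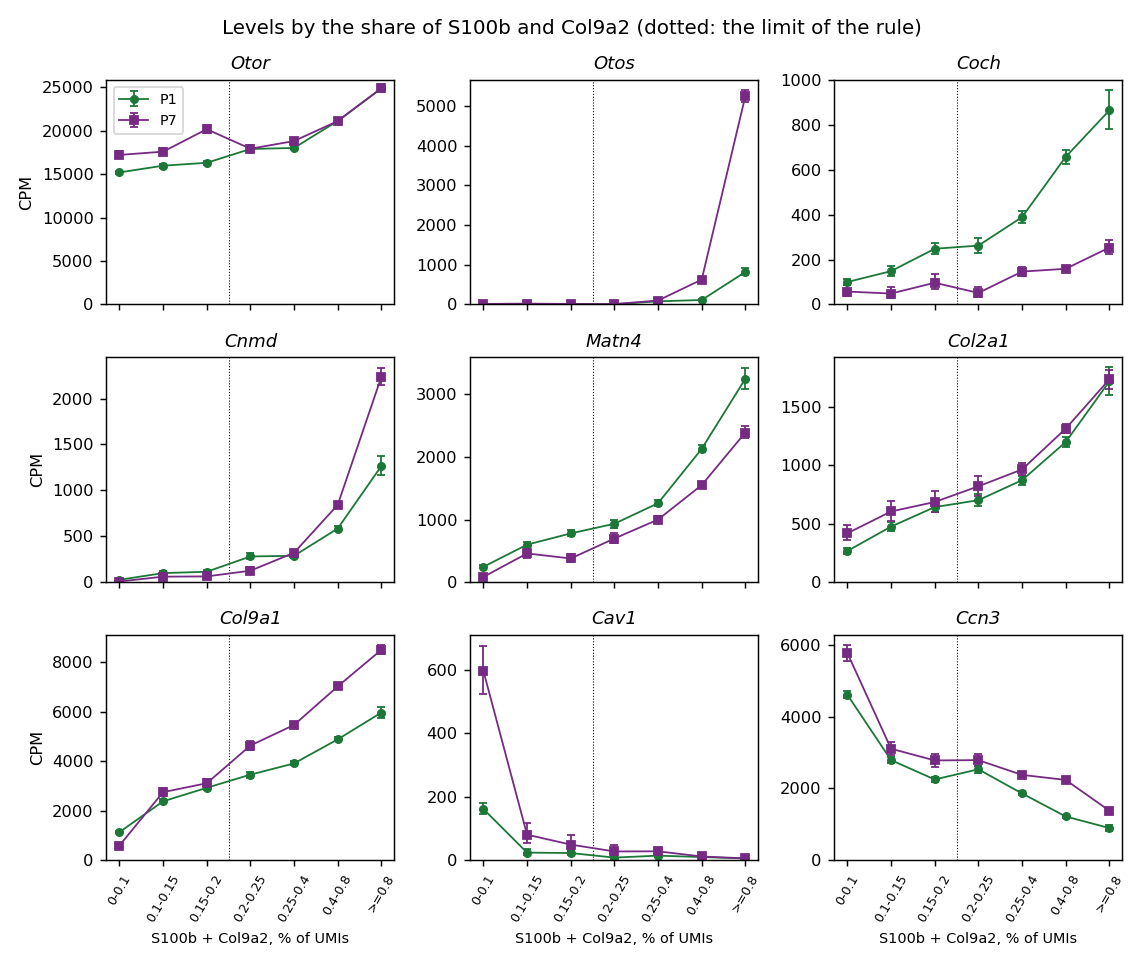
Levels of 9 genes in CPM (linear axes from 0) in Otor-high cells by the share of UMIs on S100b and Col9a2, P1 in green circles and P7 in purple squares, with exact 95% Poisson intervals; cells left of the dotted line are the low cells. Cnmd, Matn4 and Col9a1 climbed across the limit, Otos stood out in the topmost band, and Cav1 and Ccn3 were highest in the lowest band.

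Set against all other kept cells, 42 of 7107 genes (0.591%) were past 2-fold higher in the members in both libraries and 321 (4.52%) lower. Within 1 library 1.45% were higher and 7.43% lower at P1, and 1.31% higher and 6.08% lower at P7. Besides Otor, Crym and Col9a2, which are in the rule, the highest were Otos, Gcg, Col11a2, Cnmd, Cytl1, Col9a3, Aldh3a1, Coch, Matn4, Dpp4, Serpinf1 and Csap1. Coch, cochlin, the matrix protein whose mutations cause a progressive deafness, had 514 CPM in the members and 46.8 in the others at P1, and 164 and 52.6 CPM at P7. Serpinf1, a secreted inhibitor of vessel growth, had 1484 against 356 CPM and 1781 against 637 CPM. Dpp4, a peptidase that trims glucagon-like peptides among others, had 66.9 against 20.8 and 110 against 33.6 CPM.

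Between the ages, 582 of 7724 genes (7.53%) were past 2-fold higher in the members at P7 and 236 (3.06%) lower, and the median log2 ratio over all of them was 0.15. With the mitochondrial, ribosomal protein, haemoglobin and rule genes left out of the total, 371 genes were lower. In the low cells 249 of 5024 genes (4.96%) were higher and 272 (5.41%) lower, on 129 cells at P7. In all other kept cells 5.43% of 8228 genes were higher and 3.67% lower. Otor and Crym, used by the rule, stayed near 1 level, with 19745 and 20957 CPM for Otor and 7648 and 7285 CPM for Crym.

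Gcg led the genes higher at P7, with 43.9 CPM (38.9 to 49.3) at P1 and 1419 CPM (1389 to 1449) at P7, 32.3-fold. Otos was 9.28-fold higher. Cpz, a carboxypeptidase that binds Wnt proteins, had 14.3 and 213 CPM. The homeobox genes Msx3 and Dlx5 had 2.02 and 1.09 CPM at P1 and 64.2 and 49.1 CPM at P7, and Dmp1, a matrix protein of bone, 0.778 and 39.7 CPM. Slco1c1, a transporter of thyroid hormone, had 14.5 CPM at P1 and 182 CPM at P7, with 37.7 and 215 CPM in the low cells. Thrb, a receptor of that hormone, had 26.0 and 94.6 CPM. Slco1c1 and Thrb were the 2 of 5 thyroid hormone genes at the floor past 2-fold, where 7.53% of all genes were higher. The same 2 of 5 were past 2-fold higher in the low cells, where 4.96% of all genes were.

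Several of the other genes in this list were also found in macrophages. Clec2g was higher in macrophages at both ages (80.5 and 196 CPM against 2.18 and 72.7), and so was LOC100360791 (46.7 and 308 CPM against 27.4 and 204). Plvap, an endothelial gene, had 2.65 and 49.4 CPM in the members and 20.1 and 33.2 CPM in macrophages.

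Members of other lists were past 2-fold higher at P7, to be read against the 7.53% of all genes. Of carbonic anhydrases, enzymes that interconvert carbon dioxide and bicarbonate, 4 met the floor and all 4 were past 2-fold higher (Car2, Car3, Car11 and Car14), but Car3 is capped at 2 UMIs by the rule. Of gap junction genes 3 of 5 were higher, among them Gjb2 (65.5 and 156 CPM) and Gjb6 (19.1 and 74.5 CPM), connexins whose loss causes deafness. This was not particular to the members, since the same 3 genes were higher in the low cells (3 of 4 at the floor). In all other kept cells Gjb2 and Gjb6 were higher (2 of 5). Igfbp2, a carrier of insulin-like growth factors, had 1750 and 5192 CPM, and Igf1 307 and 148 CPM. In that list 3 of 10 genes were higher and 1 lower. Sox9 was 3.1-fold higher and Col11a2 3.09-fold, the latter the only chain of the collagens II, IX and XI past 2-fold (1 of 6, median 0.45). Both were past 2-fold higher in all other kept cells as well, and Col11a2 also in the low cells. Of 4 complement genes at the floor 3 were higher, and of 7 lipid carriers 4, among them Apoe with 464 and 1995 CPM, which also had 1644 and 3526 CPM in all other kept cells. Antioxidant genes gave 0 of 20 past 2-fold in either direction.

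Immediate early genes are induced within minutes of a stimulus such as tissue handling, and their list here also held heat-shock genes. Of 15 genes at the floor, 5 were past 2-fold lower at P7 (Fos, Jun, Junb, Jund and Egr1) and 8 were within 2-fold. The 2 that were higher, Hspa1b and Hspb1, are heat-shock genes. The median was -0.89, and 3.06% of all genes were lower. Egr1 had 408 and 76.1 CPM in the members and 572 and 118 CPM in all other kept cells. Coch was lower, with 514 CPM (497 to 532) at P1 and 164 CPM (154 to 174) at P7, 3.14-fold, and in the low cells 159 and 66.9 CPM. Of 12 hallmark genes of fibrocytes and the lateral wall, 10 met the floor, 5 were higher at P7 (Otos, Cldn11, Col11a2, Gjb2 and Gjb6) and Coch was lower. Over all genes 7.53% were higher. In the low cells 3 of 8 were past 2-fold higher (Col11a2, Gjb2 and Gjb6), where 4.96% of all genes were. In all other kept cells 4 of 10 were (Otos, Col11a2, Gjb2 and Gjb6), where 5.43% of all genes were.

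**Figure D4:**
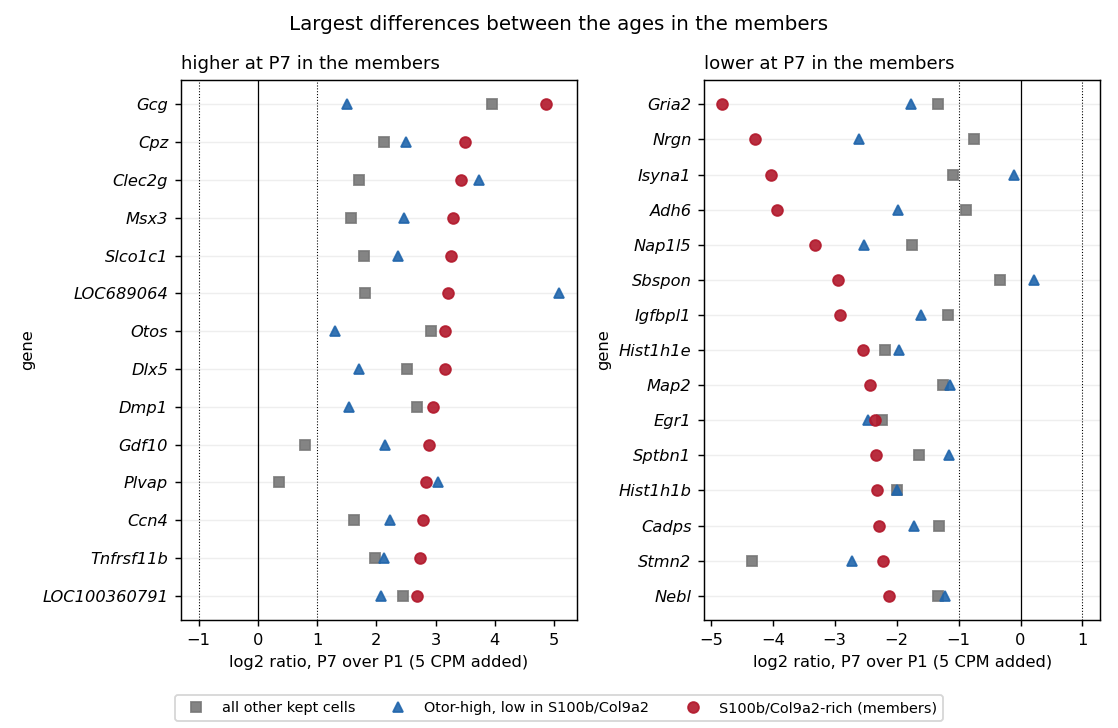
Log2 ratio of P7 to P1 (5 CPM added) for 14 of the 15 genes with the largest ratio and the 15 with the lowest in the members (red circles), beside the same ratio in the Otor-high cells low in S100b and Col9a2 (blue triangles) and in all other kept cells (grey squares); dotted lines mark 2-fold. Isyna1 and Sbspon were lower at P7 in the members and within 2-fold in the low cells.

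Isyna1 was the label gene that differed most. It had 1551 CPM (1521 to 1582) at P1 and 90.1 CPM (82.7 to 97.9) at P7 in the members, 17.2-fold lower, a log2 ratio of -4.11 (-4.23 to -3.98). In the low cells it had 277 and 257 CPM, a log2 ratio of -0.11 (-0.30 to 0.08), but in all other kept cells it was also lower at P7, with 174 and 79.0 CPM. Thus the members were 5.61-fold above the low cells at P1 and 2.85-fold below them at P7. Macrophages had 101 CPM at P1 and 66.3 CPM at P7, and at 2000 UMIs a UMI of Isyna1 was seen in 14.3% of P7 members (11.9 to 17.1) and in 11.6% of P7 macrophages (6.33 to 19), with median depths of 7785.5 and 6407 UMIs before thinning and unthinned shares of 40.5% and 33.3%. P7 glia, picked by their UMIs of glial markers, gave 9.37% (8.11 to 10.75) at 2000 UMIs and 22.4% unthinned. Isyna1 was thus seen in P7 members about as often as in macrophages and more often than in glia. The part of free RNA in its P7 level was not tested. Of the 7 inositol genes measured, Isyna1 was the one past 2-fold lower and Impa1 the one past 2-fold higher (18.2 and 43.9 CPM). Over all genes 3.06% were lower and 7.53% higher, and Impa1 was past 2-fold higher in the low cells too.

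At P1 the Isyna1 transcripts were not spread evenly over the members. A UMI of Isyna1 was absent from 38.5% of them, while 253 (25.8%) had 10 or more, and at P7 only 4 members (0.533%) had 10 or more. These 253 cells were also richer in several other genes that were lower at P7. Gria2, a subunit of AMPA-type glutamate receptors, had 480 CPM (451 to 510) in them and 33.8 CPM (28.5 to 39.9) in the other 728 members. Nrgn, a calmodulin-binding protein best known from neurons, had 306 and 49.7 CPM, and Adh6, an alcohol dehydrogenase, 253 and 21.8 CPM. Of the 14 genes besides Isyna1 that were most lowered at P7, 8 were past 2-fold higher in these 253 cells. Of 236 other named and listed genes 34 were, and the share over all genes was not counted. Isyna1 and the 14 genes came from the same ranking in the same cells, so these counts are a description only.

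The Isyna1-rich P1 members differed in further genes that the choice of cells did not use. Slc3a2, a chain of amino acid transporters, had 2546 CPM in them and 633 in the other P1 members. Apod had 4700 and 1746 CPM, Coch 896 and 315 CPM, and Col11a1 2221 and 647 CPM. Lower in them were Igfbp5 (196 and 1115 CPM), Id1, an inhibitor of differentiation factors (86.4 and 636 CPM), and Ccn3 (686 and 2118 CPM). Otor was alike at 21599 and 18780 CPM. They were deeper, with a median of 8107 against 5391.5 UMIs, and 11 of them and 12 of the others were called doublets. Macrophage markers had 685 UMIs in them and 30 in the other members, but 3 cells held 673 of the 685, and without these 3 cells Gria2 had 485 CPM. Hba-a2, a haemoglobin gene, had 495 and 60.1 CPM, and its part was not tested. In members with under 10 UMIs of Isyna1 at both ages, 13 of these 14 genes were past 2-fold lower at P7, with Sbspon at a log2 ratio of -0.97. The 14 were chosen by their fall in all members, most of whom (728 at P1 and 746 at P7) are in this subset. The 13 of 14 is thus a description only. Over all genes 246 were past 2-fold lower in the subset and 236 in all members. Gria2 had 33.8 CPM in the P1 members with under 10 UMIs of Isyna1 and 1.79 CPM over all P7 members.

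Otos and Gcg were each concentrated in few members. Otos had no UMI in 87.4% of P1 and 72.1% of P7 members, and the tenth of members with the most Otos held 96.9% and 95.5% of its UMIs. Members with 10 or more UMIs of Otos numbered 18 (1.83%) at P1 and 77 (10.3%) at P7, and those with 10 or more of Gcg 9 (0.917%) and 121 (16.1%). At 2000 UMIs, Otos was seen in 6.05% of P1 members (4.63 to 7.73) and 17.5% of P7 members (14.8 to 20.5), Gcg in 3.18% (2.17 to 4.48) and 22.2% (19.2 to 25.4). P7 macrophages gave 0.893% (0.0226 to 4.87) for Otos and 1.79% (0.217 to 6.30) for Gcg, and 0 of 146 P1 macrophages had either, which allows a share of up to 2.49%. Both genes thus stood above the level of free RNA at P7. Without thinning the shares of Otos were 12.6% and 27.9% in the members and 5.69% in P7 macrophages, and those of Gcg 6.32%, 27.9% and 9.76%.

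The Otos-rich and Gcg-rich cells overlapped in part at P7. Of the 750 members 27 had 10 or more UMIs of both, 50 of Otos alone, 94 of Gcg alone and 579 of neither. Thus 27 of the 77 Otos-rich cells were Gcg-rich, a larger share than the 121 of 750 (16.1%) over all members. The 27 cells are in both contrasts that follow. In the Otos-rich cells Cnmd had 2477 CPM against 692 in the other members, Coch 452 against 126, Gjb2 318 against 134, Matn4 2698 against 1341 and Cpz 553 against 168. In the Gcg-rich cells Cnmd was also high (2107 against 557 CPM), but Coch was low (92.5 against 184) and Matn4 alike (1496 and 1501). Mia had 792 against 105 CPM there, Dpp4 270 against 63.9, Cytl1 1184 against 297 and Ptgds, a prostaglandin synthase, 134 against 18.8. Wif1 and Notum, secreted inhibitors of Wnt signals, and Gdf10 were nearly absent from the Gcg-rich cells, with 22.8, 6.61 and 3.67 CPM against 173, 78.7 and 96.5 CPM. Fbxo2 was high in both, with 1070 and 1079 CPM against 304 and 198 CPM. Cells rich in both genes had a median of 11637 UMIs, those rich in Gcg alone 10929, in Otos alone 7865 and in neither 7259. A cut at 10 UMIs is met more easily by deeper cells. Of the 121 Gcg-rich cells 8 were called doublets.

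**Figure D5:**
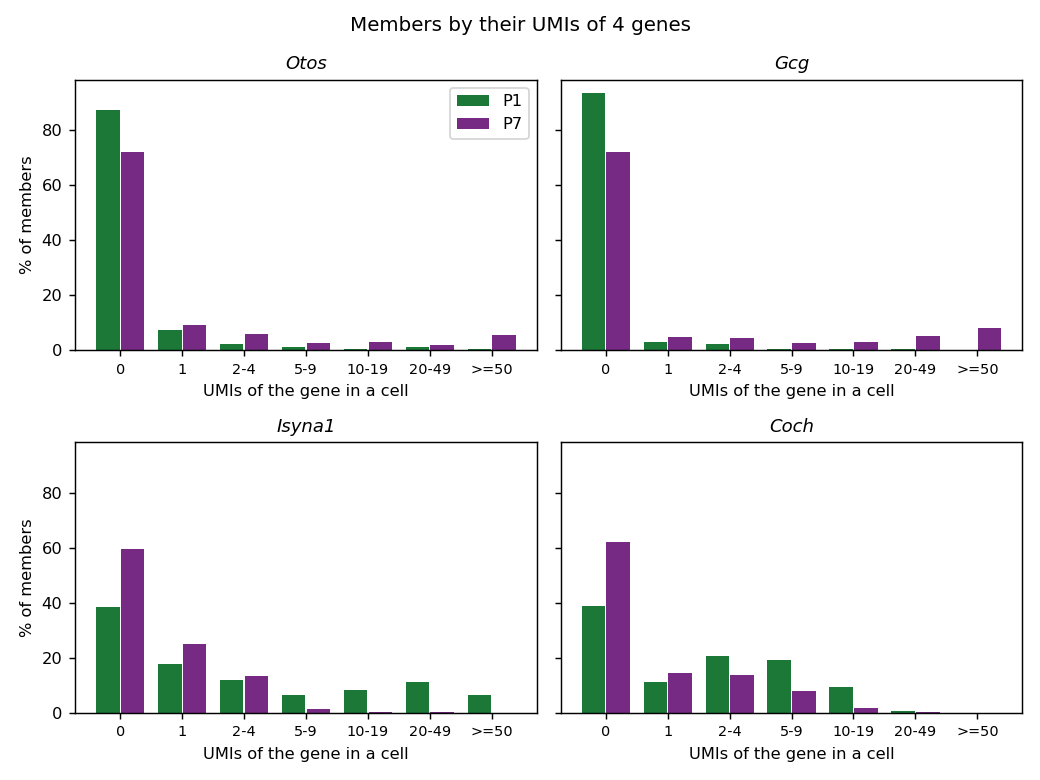
Percent of members (vertical axis) by the number of UMIs of Otos, Gcg, Isyna1 and Coch in a cell (horizontal axis), P1 in green and P7 in purple. Most members had no UMI of Otos or Gcg at either age, 8% of P7 members had 50 or more of Gcg, and members with 10 or more of Isyna1 were 25.8% at P1 and 0.533% at P7.

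S100b and Col9a2 did not contribute equally in every member. S100b made up over 75% of their sum in 68 P1 and 18 P7 members and under 25% in 77 P1 and 149 P7 members. The latter, led by Col9a2, had few transcripts of Otos (4.75 CPM at P1 and 89.5 at P7) and less Cnmd (154 and 178 CPM) than the mixed members (121 and 1504 CPM of Otos, 497 and 1067 CPM of Cnmd). They had more Crym, 10168 CPM against 7562 at P1 and 8933 against 6942 at P7. Col2a1 was alike at P1, with 1025 and 1044 CPM. The S100b-led P1 members had 258 CPM of the macrophage gene Lyz2 (111 UMIs in 68 cells), against 1.79 CPM in the mixed members. C1qa, C1qb and C1qc, also macrophage genes, went the other way, with 2.33, 2.33 and 4.65 CPM against 27.1, 40.9 and 28.0. Over all P1 members, 3 cells held 673 of the 715 UMIs of the 7 macrophage markers, and the other members held 42. Most UMIs of these 4 genes thus lay in those 3 cells, so the contrasts show where these cells fell. The part of macrophages in these values was not tested.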

How the data were processed

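For each library the authors deposited UMI counts per gene and barcode in a matrix made by Cell Ranger 3.1.0, without normalization, aligned by the Methods to the rat genome rn6. The labels also name bcl2fastq and Seurat 3.1.1. Of 32623 rows, those with the same symbol were summed to 26976 symbols. Removal of doublets or of free RNA is not given in the sources used here. Cells with 501 to 4999 genes and under 25% mitochondrial UMIs were kept, with doublets left in. Scrublet, as run by scanpy 1.11.5, marked doublets, which only an alternative left out. UMIs were summed over a group of cells and scaled to CPM. Calls of 2-fold used 5 CPM added to both levels and at least 10 CPM and 50 UMIs in the higher group. Folds and their intervals are of counts scaled to totals, without added CPM. Intervals are exact (Poisson for counts, Clopper-Pearson for shares, 95%). Sums over cells are dominated by deeper cells. Macrophages had at least 0.3% of UMIs on Lyz2 and C1qa. Pooling hides the spread between animals. Named genes are the label markers, the genes of the rule, the listed genes and the 15 most different per direction (against all other cells, higher only) leaving out mitochondrial genes. Some of these genes are not reported here. Members and lists were chosen with earlier results of these data known, and the split by Isyna1 and the cuts at 10 UMIs of Otos and Gcg after the values were seen. A few other genes named outside the lists were also chosen then. The steps were tested on simulated data. Python 3.11.15, numpy 2.4.6, scipy 1.17.1 and pandas 2.3.3 were used.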

Additional observations from a re-analysis of the deposited data

Results flagged for a closer look

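2 genes went past 2-fold in opposite directions in the members and in all other kept cells. Calb1, calbindin, a calcium buffer, had 2.80 CPM at P1 and 12.7 CPM at P7 in the members, a log2 ratio of 1.18 with 5 CPM added. In the other cells it had 18.6 and 5.91 CPM, a log2 ratio of -1.12. Its rise was not particular to the members, since Calb1 was past 2-fold higher at P7 in the low cells too. At P7 it was past 2-fold lower in the members than in the low cells. Spock3, a proteoglycan, had 1.56 and 10.9 CPM in the members, a log2 ratio of 1.28, against 25.4 and 6.44 CPM in the other cells, a log2 ratio of -1.41. The difference between the groups was not tested, since each age has 1 library, and both genes are low in the members.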

How the results depend on the processing

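The limit on S100b and Col9a2 decided the share of members. With 0.4% the P1 share was 3.79% and the P7 share 4.20%, so the log2 ratio reversed from -0.36 to 0.15. Other choices kept the direction. The log2 ratio was -0.12 with a mitochondrial limit of 10% (8.24% and 7.57%), -0.53 with at most 2 UMIs of glial markers (5.25% at P7) and -0.058 among Otor-high cells (53.4% and 51.3%), and with Otor at 2% the shares were 3.47% and 2.72%.

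The counts of genes past 2-fold between the ages, 582 higher and 236 lower, became 888 and 391 with 1 CPM added, 332 and 145 with 10 CPM added and 219 and 93 at a floor of 50 CPM. With the total without mitochondrial, ribosomal protein, haemoglobin and rule genes 371 were lower, and with cells thinned to 2000 UMIs 376 were higher. Against the low cells, the 37 higher and 17 lower in both libraries became 58 and 28 at 0.4%. At a floor of 50 CPM 21 were higher, and lower were 5 with Otor at 2%, 32 at a floor of 3 UMIs and 8 when thinned. The collagen median against the low cells was 1.53 at P1 and 1.71 at P7 at 0.4%, 1.12 at P1 with Otor at 2% and 1.71 at P7 without doublets. That between the ages was 0.35, 0.38 with Otor at 2% and 0.38 with the other total. The causes were not tested, apart from fewer genes passing a higher floor.

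Of 2520 ratios recomputed for 70 genes under the 12 settings that can move a ratio, 2090 stayed within the counting error of the value reported, 429 moved further and 1 reversed. That was Isyna1 against the low cells at P1, -0.37 in members under 10 UMIs of Isyna1, by the construction of that setting, which was chosen after seeing the data. No paired analysis was possible because each age has 1 library. The low cells at P7 numbered 129, with 1121326 UMIs, and the macrophages at P7 123, with 904381 UMIs.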

Other observations

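Some groups not described above also stood apart. Among secreted Wnt modulators and targets, 3 of 7 were past 2-fold lower in the members than in the low cells at P7, namely Sfrp2, Axin2 and Notum, and 1 of 7 (Sfrp2) at P1, where 0.979% and 0.626% of all genes were lower. Notum had 62.7 CPM in the members and 405 CPM in the low cells at P7, and 38.3 and 54.9 CPM at P1. Bambi, a decoy receptor for BMP signals, had 103 and 326 CPM at P7 and 26.5 and 32.3 CPM at P1. Of 5 osteoblast markers at the floor at P7, 3 were past 2-fold higher in the members than in the low cells (Ibsp, Phex and Dmp1). There 3.01% of all genes were higher. Against all other kept cells 0 of 5 were past 2-fold. Summed, the 7 osteoblast markers had 94.6 CPM in the members, 40.1 CPM in the low cells and 137 CPM in all other kept cells.

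Y-linked genes, chosen after their values were seen, differed between the pools. Eif2s3y had 74.2 CPM in the members at P1 and 24.4 CPM at P7, and 67.2 and 7.85 CPM in all other kept cells. Kdm5d had 11.5 and 3.41 CPM in the members and 13 and 1.05 CPM in the others. The makeup of the pools by sex is not given in the sources used here.

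The order of the members and the low cells in Hba-a2, a haemoglobin gene, turned between the libraries, while its level was higher at P7 in both groups. It had 209 CPM in the members and 46.6 CPM in the low cells at P1, and 517 and 1026 CPM at P7.

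The remaining lists, between the ages in the members, gave these counts past 2-fold, to be read against 7.53% higher and 3.06% lower over all genes. Cartilage matrix and its regulators had 3 higher of 9 (Chad, Ucma and Sox9), interstitial collagens 1 higher and 1 lower of 9, basement membrane genes 2 higher and 1 lower of 10, and small proteoglycans 1 higher (Dcn) and 1 lower (Fmod) of 6. Matricellular genes had 4 higher of 11 (Ccn4, Sparc, Sparcl1 and Thbs2). Transcription factors had 2 higher and 1 lower of 21, glycolysis 1 lower of 13, ion transport 1 higher and 1 lower of 8, and imprinted genes 0 of 5. Calcium-binding proteins had 2 higher of 9, retinoic acid genes 2 higher of 8, Wnt modulators 2 higher of 8, BMP genes 4 higher and 1 lower of 9, and fibrocyte subtype genes 3 higher and 1 lower of 12.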
